A study of Mus musculus with 17 samples.

Results

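The replication of mitochondrial DNA (mtDNA) and the supply of its nucleotides were followed through 10 nuclear genes, Polg, Polg2, Twnk, Ssbp1, Mgme1, Tk2, Dguok, Rrm2b, Primpol and Rnaseh1, chosen by name from the 56748 genes of the count table. All 10 passed the filter on low counts, which left 16195 genes. The mouse hearts came from animals of 12 to 16 months: 9 from Polg hMut mice (hMut) and 8 from controls (Ctrl), with 1 poly(A)-selected library per heart and no treatment. The hMut genotype was Polg iMut/iMut; +/Ckmm-cre. In the iMut allele a loxP-flanked cassette of wild-type Polg cDNA, spanning exons 3 to 23 and ending in a human growth hormone polyadenylation signal, stands in intron 2 ahead of an exon 3 with the D257A mutation, and Cre removes the cassette so that the proofreading-deficient polymerase is made. The Cre is driven by the muscle creatine kinase promoter, which is active in cardiomyocytes and skeletal muscle but not in the other cells of the heart. For the control hearts the labels give the genotype Ctrl and nothing further, so whether they carried unrecombined iMut alleles was not stated in the sources used here.

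Mammalian mtDNA is copied by a small replisome of its own: the helicase Twinkle opens the duplex, polymerase gamma, a catalytic subunit with an accessory dimer, extends the new strand, and a single-stranded DNA-binding protein covers the exposed template. Nucleases remove primers and flaps. Adult heart muscle cells rarely divide but keep replicating mtDNA, so their deoxynucleotides come from salvage by the mitochondrial kinases TK2 and DGUOK and from the ribonucleotide reductase that contains the p53-inducible subunit encoded by Rrm2b.

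The stretch of Polg that is mutated in the iMut allele is shown, because the hMut hearts are designed to express it after Cre acts. Exon 3 of the 23 exons of the canonical transcript lies at chr7:79111446-79111641 (GRCm39, minus strand), is coding over all of its 196 bases, and holds the codon changed in D257A at positions 79111479 to 79111481, in capitals here:
Polg exon 3: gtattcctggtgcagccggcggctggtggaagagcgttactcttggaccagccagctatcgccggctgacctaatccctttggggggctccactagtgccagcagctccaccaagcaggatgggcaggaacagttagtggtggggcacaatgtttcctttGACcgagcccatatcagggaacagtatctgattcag
The reference codon GAC is changed to GCC in the allele, which is A770C counted from the first base of the start codon. The counts are per gene, so transcripts of the cassette, of the recombined allele and of a wild-type allele could not be told apart.

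The 17 libraries held between 32915159 and 46486964 gene-assigned counts. mtDNA-encoded genes took 23.5 to 30.9% of the counts in Ctrl and 15.9 to 23.0% in hMut. With edgeR's quasi-likelihood test and Benjamini-Hochberg adjustment over all genes tested, 749 genes (4.62%) differed between the genotypes at an adjusted p under 0.05, of which 564 (3.48%) were higher and 185 (1.14%) lower in hMut. Levels are given as CPM, the counts of a gene relative to the size of its library after trimmed-mean (TMM) normalization. The defining genes of cardiomyocytes were abundant in each library (summed level of 24 markers, 83263 to 99982 CPM in Ctrl and 63999 to 98560 in hMut). The libraries hMut 6 and hMut 9 had the lowest sums, 67916 and 63999 CPM. In bulk tissue, fewer cells of a type and less RNA per cell cannot be told apart.

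Polg was the single gene of the 10 to pass the test, and it was higher in the hMut hearts; 1 of 10 stood beside 4.62% of all genes. In Ctrl the level of Polg, the catalytic subunit (chr7:79095979-79116110, minus strand; gene positions are in GRCm39), was lowest at 27.1 (Ctrl 3), had a median of 32.0 and reached 47.2 CPM (Ctrl 8). In hMut it was lowest at 47.0 (hMut 6), had a median of 59.6 and reached 65.1 CPM (hMut 2). Thus 8 of the 9 hMut hearts lay above every Ctrl heart, and hMut 6 lay just under Ctrl 8. The mean rose from 34.7 ± 7.31 (SD, n = 8) to 57.9 ± 6.08 CPM (SD, n = 9), a log2 fold change of 0.74 (SE 0.10, 95% interval 0.52 to 0.96, edgeR adjusted p = 0.000448), or 1.67-fold. Among all genes tested, 1.70% had 8 or more hMut hearts above every Ctrl heart.

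The Ctrl hearts were not uniform for Polg. Ctrl 2 (44.2 CPM) and Ctrl 8 (47.2 CPM) stood above the other 6, which lay between 27.1 and 35.5 CPM. No other gene of the set had these same hearts as its highest pair in Ctrl. Leaving out any 1 library kept the log2 fold change between 0.69 and 0.81 and the call. The labels give no sex, which Xist and the Y-linked genes served to assign. In the females (3 Ctrl, 2 hMut) the level was 33.2 ± 2.38 against 62.0 ± 3.39 CPM, and in the males (5 Ctrl, 7 hMut) 35.6 ± 9.38 against 56.8 ± 6.34 CPM, so that the direction was the same in both.

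**Figure D1:**
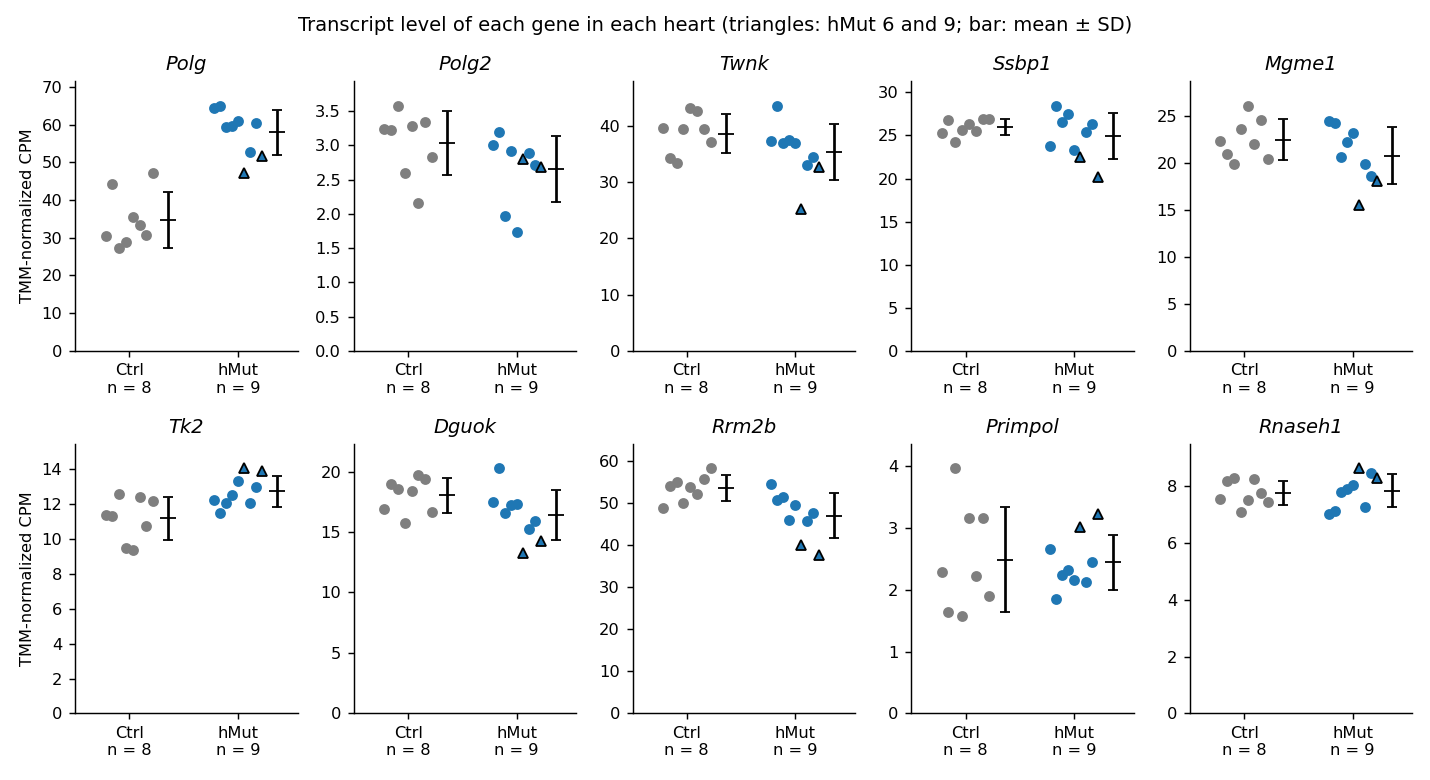
TMM-normalized CPM of each of the 10 genes (y axis, from 0) in each heart of the Ctrl (grey, n = 8) and hMut (blue, n = 9) groups, with the mean ± SD beside the points and triangles for hMut 6 and 9. The groups are nearly apart for Polg, where hMut starts at 47.0 and Ctrl ends at 47.2 CPM, and overlap for the other 9 genes.

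The remaining replisome genes did not pass the test. Polg2, which encodes the accessory subunit that holds the polymerase on its template (chr11:106659079-106670363, minus strand), was a low transcript, with 61 to 134 counts per library. It ranged from 2.16 to 3.58 CPM in Ctrl (median 3.23) and from 1.73 to 3.19 CPM in hMut (median 2.80). Only hMut 3 and hMut 5 lay below every Ctrl heart, and the log2 fold change was -0.19 (SE 0.13, 95% interval -0.46 to 0.08, edgeR adjusted p = 0.345). For 36.9% of all genes at least 2 hMut hearts lay below every Ctrl heart. Twnk, the Twinkle helicase (chr19:44994102-45001201, plus strand), ranged from 33.5 to 43.1 CPM in Ctrl (median 39.4) and from 25.1 to 43.6 CPM in hMut (median 36.9). Its lowest heart was hMut 6 and its highest hMut 2, and the log2 fold change of -0.13 had a 95% interval of -0.30 to 0.04 (edgeR adjusted p = 0.316). Ssbp1, the single-stranded DNA-binding protein (chr6:40448286-40461634, plus strand), was the most even transcript of the set in Ctrl, at 25.9 ± 0.94 CPM (coefficient of variation 3.62%). In hMut it was 24.9 ± 2.66 CPM (coefficient of variation 10.7%), with 4 hearts below and 2 above the whole Ctrl range, and a log2 fold change of -0.06 (95% interval -0.18 to 0.06, edgeR adjusted p = 0.533). Of all genes, 15.2% had at least 4 hMut hearts below that range and 37.0% at least 2 above it.

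Of the nucleases and the primase, none passed. Mgme1, the exonuclease that trims single-stranded ends (chr2:144112583-144123147, plus strand), was 22.5 ± 2.14 CPM in Ctrl and 20.8 ± 3.04 CPM in hMut, where 4 of 9 hearts lay below every Ctrl heart and hMut 6 was lowest at 15.5 CPM. The log2 fold change was -0.12 (95% interval -0.29 to 0.06, edgeR adjusted p = 0.388). At least 4 hMut hearts lay below every Ctrl heart for 15.2% of all genes. Rnaseh1, which degrades RNA in RNA-DNA hybrids and so removes primers (chr12:28699601-28709588, plus strand), was at 7.75 ± 0.43 and 7.83 ± 0.59 CPM. Its interval was the narrowest of the set, -0.10 to 0.14 around a log2 fold change of 0.02 (edgeR adjusted p = 0.879). Primpol, a primase-polymerase that can restart stalled synthesis (chr8:47028629-47070247, minus strand), was the lowest transcript, at 50 to 143 counts per library. It was 2.49 ± 0.85 CPM in Ctrl and 2.45 ± 0.44 CPM in hMut, with a log2 fold change of -0.02 whose interval was the widest of the set, from 0.759-fold to 1.28-fold (edgeR adjusted p = 0.949).

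The nucleotide supply genes held the next smallest p-values of the set, in opposite directions, and none of the 3 passed. Rrm2b, the small subunit of the p53-inducible ribonucleotide reductase (chr15:37924196-37961562, minus strand), ranged from 49.0 to 58.4 CPM in Ctrl (median 54.0) and from 37.7 to 54.6 CPM in hMut (median 47.8). Of the hMut hearts, 5 lay below every Ctrl heart, with hMut 9 (37.7 CPM) and hMut 6 (40.1 CPM) lowest, while 9.35% of all genes had 5 or more hMut hearts below. The log2 fold change was -0.19 (SE 0.06, 95% interval -0.32 to -0.05), with an edgeR adjusted p = 0.0929 (unadjusted 0.00955). With 1 library left out Rrm2b stayed above the threshold in 16 of 17 fits, up to an edgeR adjusted p of 0.159 without Ctrl 8. The exception was the fit without hMut 1, the hMut heart with the highest level (edgeR adjusted p = 0.0448). Without hMut 6 and 9 it was 0.190. Tk2, the mitochondrial kinase of thymidine and deoxycytidine (chr8:104953317-104975190, minus strand), ranged from 9.38 to 12.6 CPM in Ctrl (median 11.4) and from 11.5 to 14.1 CPM in hMut (median 12.5). Its 2 highest hearts were hMut 6 and hMut 9, and 4 of 9 hMut hearts lay above every Ctrl heart, as at least 4 did for 15.8% of all genes. The log2 fold change was 0.19 (SE 0.07, 95% interval 0.05 to 0.33), with an edgeR adjusted p = 0.103 (unadjusted 0.0116). Dguok, the kinase of deoxyguanosine and deoxyadenosine (chr6:83457199-83483951, minus strand), was 18.0 ± 1.44 CPM in Ctrl and 16.4 ± 2.06 CPM in hMut (log2 fold change -0.14, 95% interval -0.29 to 0.02, edgeR adjusted p = 0.236).

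Across the 9 genes other than Polg the median log2 fold change was -0.12, beside 0.0023 over all genes tested, and 7 of the 9 values were negative. Without hMut 6 and 9 several lay nearer to 0, among them Twnk (-0.06), Mgme1 (-0.04), Ssbp1 (-0.0014), Dguok (-0.07) and Rrm2b (-0.12). In that fit Polg2 was at -0.20, Primpol at -0.14, Rnaseh1 at -0.02 and Tk2 at 0.15. With all 17 hearts, 2 of the 9 genes stood at an unadjusted edgeR p under 0.05, beside 25.8% of all genes. Their 95% intervals reached down to 0.73-fold and up to 1.28-fold, so that a rise of the size of Polg (1.67-fold) lay outside the interval of each. When libraries were scaled to the summed cardiomyocyte markers instead of by TMM, the median over all genes moved to 0.23. In that fit 7 of these 9 log2 fold changes became positive from negative. Of the 9, Tk2 (0.42, edgeR adjusted p = 0.0219) and Ssbp1 (0.15, edgeR adjusted p = 0.0397) passed, as did 33.2% of all genes. Relative to the median of 0.23, Tk2 was at 0.19 and Ssbp1 at -0.08.

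**Figure D2:**
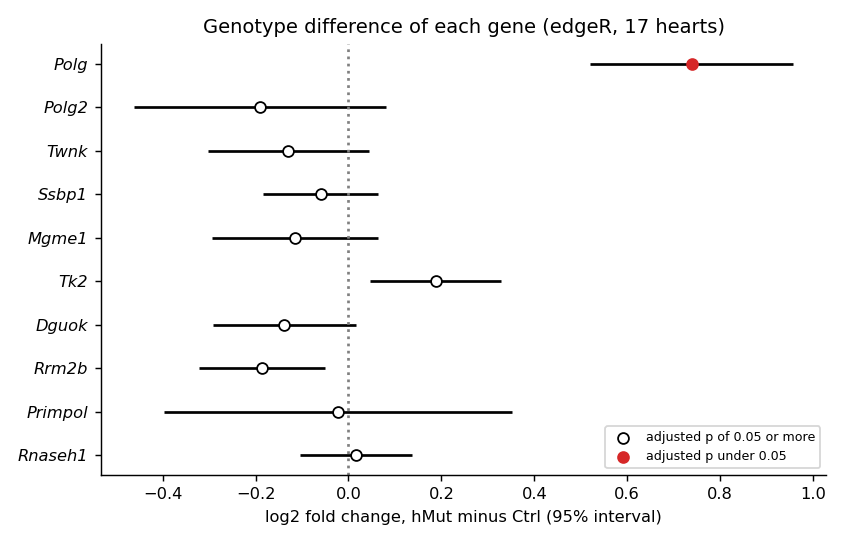
The log2 fold change (hMut minus Ctrl, x axis) of each of the 10 genes with its 95% interval, from the edgeR fit to 17 hearts; the filled point passed the adjusted threshold. Polg stands at 0.74, and the other 9 estimates lie between -0.19 and 0.19.

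Ratios of counts within a library do not depend on how libraries are scaled, and 3 were compared by exact permutation (two-sided, all 24310 splits of the hearts). The ratio of Polg to Polg2, the subunits of 1 enzyme, had a median of 10.9 in Ctrl and 20.4 in hMut, and the highest Ctrl value, 16.6 in Ctrl 8, was just under the lowest hMut value, 16.8 in hMut 6. The mean log2 ratio was higher by 0.96 in hMut (3.50 ± 0.39 against 4.46 ± 0.34, 1.94-fold, exact permutation p = 4.11e-05, adjusted over the 3 ratios 6.17e-05). The ratio of Polg to Twnk, polymerase against helicase, had a median of 0.796 in Ctrl and 1.60 in hMut. It was 0.735 to 0.824 in 6 Ctrl hearts, 1.27 in Ctrl 8 and 1.29 in Ctrl 2, and 1.49 or more in each hMut heart. The log2 difference was 0.90 (1.86-fold, exact permutation p = 4.11e-05, adjusted 6.17e-05). In both ratios 9 of 9 hMut hearts lay above every Ctrl heart, and this p is the smallest these splits can give. Both have Polg as numerator, so they are not independent of each other or of the Polg difference above.

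The ratio of the pyrimidine to the purine kinase was higher in hMut. The ratio of Tk2 to Dguok had a median of 0.618 in Ctrl and 0.768 in hMut, and ran from 0.511 to 0.731 in Ctrl and from 0.567 to 1.06 in hMut. The log2 difference was 0.34 (1.26-fold, exact permutation p = 0.00716, adjusted 0.00716), with 5 of 9 hMut hearts above every Ctrl heart. The highest 2 ratios, 1.06 and 0.979, were in hMut 6 and hMut 9, and without these hearts the log2 difference was 0.23 (exact permutation p = 0.0263).

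**Figure D3:**
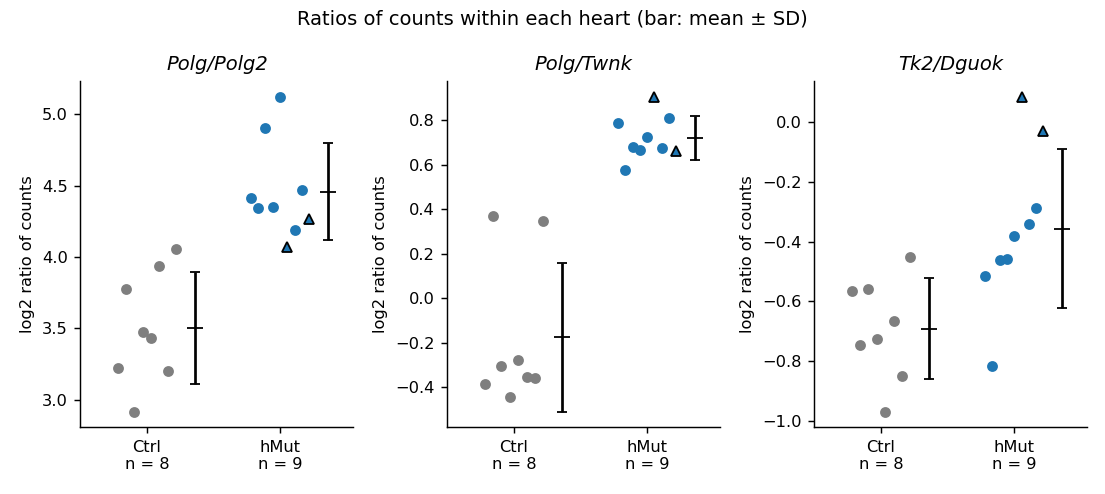
The log2 ratio of counts (y axis) of Polg to Polg2, Polg to Twnk and Tk2 to Dguok in each Ctrl (grey, n = 8) and hMut (blue, n = 9) heart, with mean ± SD and triangles for hMut 6 and 9. The groups are apart for both Polg ratios, Ctrl 2 and Ctrl 8 are the 2 higher Ctrl points for Polg to Twnk, and the groups overlap for Tk2 to Dguok.

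Per kilobase of the gene length given with the counts, Twnk was the most abundant of the 10 in Ctrl (9.63 ± 0.87 CPM per kilobase). It was followed by Mgme1 (6.71), Rrm2b (5.87), Dguok (3.91), Polg (3.23), Tk2 (3.13), Ssbp1 (3.10) and Rnaseh1 (2.996), with Polg2 (0.696) and Primpol (0.388) last. The ranges over the 8 Ctrl hearts were apart between Twnk and Mgme1, between Rrm2b and Dguok, and between Rnaseh1 and Polg2, and overlapped for each other neighbouring pair. In hMut, Polg stood at 5.39 ± 0.57 CPM per kilobase, beside 5.16 ± 0.60 for Rrm2b and 3.56 ± 0.45 for Dguok. The lengths are those of the deposited table (10742 bases for Polg, 8360 for Ssbp1 and 4013 for Twnk), which may exceed those of the main mRNAs. The order of the genes depends on these lengths.

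Among hMut hearts, hMut 6 was the lowest for 4 of the 10 genes (Polg, Twnk, Mgme1 and Dguok) and hMut 9 for Ssbp1 and Rrm2b. Over the 9 genes other than Polg, the median log2 deviation from the Ctrl mean was -0.20 in hMut 6 and -0.24 in hMut 9, and between -0.16 and 0.09 in the other 7. These 2 hearts also had the lowest summed cardiomyocyte markers, given above, and hMut 6 had the highest summed myeloid markers (1538 CPM, beside 290.4 to 440.3 in Ctrl). Of the marker lists, 0 of 24 cardiomyocyte (median log2 fold change -0.15), 0 of 12 fibroblast (0.37), 0 of 15 myeloid (0.61), 0 of 15 lymphoid (1.15) and 0 of 5 erythroid genes (-0.07) passed in edgeR. The endothelial genes Cldn5 and Kdr rose (2 of 10, list median 0.10, 8 values positive). Among genes of pericytes and smooth muscle Pdgfrb rose (1 of 9, median 0.15, 8 positive), while Abcc9 stood at -0.27 (edgeR adjusted p = 0.0838). The atrial gene Bmp10 rose (log2 fold change 5.58, 1 of 5, median 0.14, 3 positive), while Nr2f2 and Stard10 stood at -0.19 and -0.27. Of all genes tested 3.48% were higher, and none of 6 adipocyte genes had enough counts to test. The part of cell makeup in the values of the 10 genes was not tested. Polg was called in the fit without both hearts.

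With each group centred on its mean, the levels of Twnk and Mgme1 went together most closely of the 45 pairs (Pearson's r 0.86, Spearman's rho 0.83 over 17 hearts, r 0.77 without hMut 6 and 9). Tk2 went with Rnaseh1 (r 0.71), and against Mgme1 (r -0.69, the lowest value), while Polg and Polg2 showed little relation (r -0.08). The hearts share a normalization, and these coefficients are a description. The nuclear genes whose level followed Polg most closely in the same way were Magi2 (r 0.81), Las1l (0.79), Gm11992 (0.79), Dsc2 (0.78) and Nelfcd (0.77), and none of them passed the test between genotypes.

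**Figure D4:**
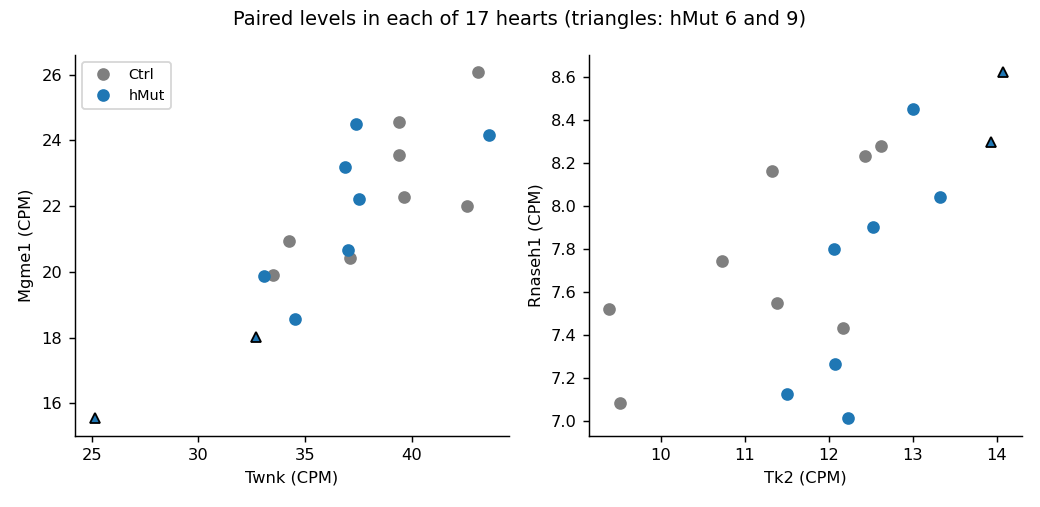
CPM of Mgme1 against Twnk (left) and of Rnaseh1 against Tk2 (right) in each of 17 hearts, Ctrl in grey and hMut in blue, with triangles for hMut 6 and 9. Both pairs rise together within the groups, hMut 6 is lowest for Twnk and Mgme1, and hMut 6 and 9 are highest for Tk2.

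Promoter windows are shown for Polg, the gene that changed, and for Twnk and Mgme1, the pair whose levels went together. They are from RefSeq (GRCm38.p6), run from 250 bases before the start of transcription to 30 after it, and carry in capitals the matches to CCGGAAG, bound by ETS factors, and to the palindromic NRF1 motif. Their positions are chr7:79466244-79466523 (minus strand) for Polg, chr19:45005413-45005692 (plus strand) for Twnk and chr2:144270654-144270933 (plus strand) for Mgme1:
Polg: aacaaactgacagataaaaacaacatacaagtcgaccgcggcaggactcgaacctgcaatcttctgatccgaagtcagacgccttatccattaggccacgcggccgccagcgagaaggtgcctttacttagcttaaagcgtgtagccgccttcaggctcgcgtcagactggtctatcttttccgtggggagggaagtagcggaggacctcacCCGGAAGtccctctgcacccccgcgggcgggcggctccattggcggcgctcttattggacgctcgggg
Twnk: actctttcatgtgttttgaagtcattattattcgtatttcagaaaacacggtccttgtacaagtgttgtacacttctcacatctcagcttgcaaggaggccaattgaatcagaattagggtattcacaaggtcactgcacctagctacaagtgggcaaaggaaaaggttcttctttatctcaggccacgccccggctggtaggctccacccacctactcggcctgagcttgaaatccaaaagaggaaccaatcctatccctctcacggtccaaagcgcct
Mgme1: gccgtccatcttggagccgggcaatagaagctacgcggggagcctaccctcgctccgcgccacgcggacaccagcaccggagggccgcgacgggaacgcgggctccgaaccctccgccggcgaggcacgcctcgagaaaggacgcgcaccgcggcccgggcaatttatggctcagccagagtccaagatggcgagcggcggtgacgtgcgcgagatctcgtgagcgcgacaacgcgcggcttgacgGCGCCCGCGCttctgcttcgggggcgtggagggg
The ETS match of Polg begins 38 bases before the start and the NRF1 match of Mgme1 begins 4 bases before it. Of the 10 genes, 8 matched the table, and with its full windows of 300 bases (1 or more per gene) 5 of them held CCGGAAG on either strand (Polg, Polg2, Twnk in a second window, Ssbp1 and Tk2), beside 8.86% of all 32817 windows. The NRF1 motif was found for 1 of 8, beside 6.22% of windows, and the ATF and CREB element TGACGTCA for 1 of 8 (Dguok), beside 1.79%. In all, 10 motifs were searched; TGATGNAA, CACGTG, TCAAGGTCA and a long and a short form of the ZNF143 motif had no match in the 8, and CCAAT and GGGCGG, each in over 35% of all windows, matched 3 and 5. Genes with several windows have more chances of a match, and a match is not evidence of binding.

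The other genes of mtDNA maintenance mostly did not pass, while 4.62% of all genes did. Of 20 further genes of the replisome and nucleoid, Lonp1, a matrix protease that degrades nucleoid proteins, rose from 172 ± 13.7 to 265 ± 40.2 CPM (log2 fold change 0.62, SE 0.09, edgeR adjusted p = 0.000371), higher in 9 of 9 hearts than in every Ctrl heart. This held for 0.543% of all genes. Mpv17, an inner membrane protein whose loss causes mtDNA depletion, fell from 39.4 ± 3.08 to 32.0 ± 4.33 CPM (log2 fold change -0.30, edgeR adjusted p = 0.0353), and the list's median was -0.04. The adenine nucleotide carrier gene Slc25a4 stood at a log2 fold change of -0.25 (edgeR adjusted p = 0.124), Tfam, which packages mtDNA, at -0.08 (0.248) and the RNA polymerase gene Polrmt at -0.09 (0.374). None of 15 base excision repair genes passed, with Ung (-0.33, edgeR adjusted p = 0.102), Parp1 (-0.14, 0.191) and Tdp1 (0.17, 0.205) nearest.

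In deoxynucleotide metabolism, 35 of 37 listed genes were tested and 1 passed, beside 4.62% of all genes, with a median of 0.01. Dctd, the deoxycytidylate deaminase that leads to thymidylate, rose from 1.36 ± 0.08 to 2.09 ± 0.43 CPM (log2 fold change 0.62, edgeR adjusted p = 0.0114). Its mean level was lower than those of Polg2 and Primpol in both groups. Of the hMut hearts, 8 lay above every Ctrl heart and 1 below, while 1.70% of all genes had 8 or more above. Nme1 (0.22, edgeR adjusted p = 0.0592) and Nt5c (0.33, 0.0882) came next by p-value. Rrm1, the large reductase subunit that pairs with the Rrm2b product, was at -0.09 (0.452). Of 11 folate one-carbon genes, which feed thymidylate and purine synthesis, 3 rose, beside 3.48% of all genes (list median 0.03, 6 values positive). All 3 were in the mitochondrial arm: Mthfd2 from 4.13 ± 0.98 to 68.9 ± 30.5 CPM (log2 fold change 4.07, SE 0.30, edgeR adjusted p = 3.82e-07), Aldh1l2 by 1.21 and Shmt2 by 0.31 (edgeR adjusted p = 1.94e-05 and 0.0063). The rest did not pass, among them Mthfd1l (1.05, edgeR adjusted p = 0.086) and Mthfd2l (-0.20, 0.125). None of 25 nuclear replication genes passed (Rpa2 -0.19, Mcm3 0.32 and Pold1 -0.13 nearest, edgeR adjusted p = 0.118, 0.159 and 0.27), nor did any of the 3 subunits of nuclear RNase H2 (Rnaseh2a, Rnaseh2b and Rnaseh2c, -0.09, 0.15 and -0.04).

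Rrm2b is a known p53 target, and the other p53 targets are given beside it. Of 22, 7 rose and 0 fell (median 0.19, 18 values positive), beside 3.48% of all genes higher and 1.14% lower. Among the 7 were Sesn2 (log2 fold change 1.29, edgeR adjusted p = 0.000994), the cell cycle inhibitor gene Cdkn1a (1.36, 0.00147) and Gadd45a (0.80, 0.00156). Other targets did not pass, among them Mdm2 (0.08, edgeR adjusted p = 0.169), Ccng1 (-0.16, 0.260) and Sesn1 (-0.12, 0.300). Activity of p53 was not tested. Rrm2b, not counted in the 22, was at -0.19. The mRNAs encoded by mtDNA itself, whose template the replisome makes, fell in 9 of 13 cases and rose in 0 (median -0.65), beside 1.14% of all genes lower. They were led by mt-Nd4l (-1.30, edgeR adjusted p = 0.000396), mt-Nd2 (-0.77, 0.000883) and mt-Nd4 (-0.75, 0.00104).

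**Figure D5:**
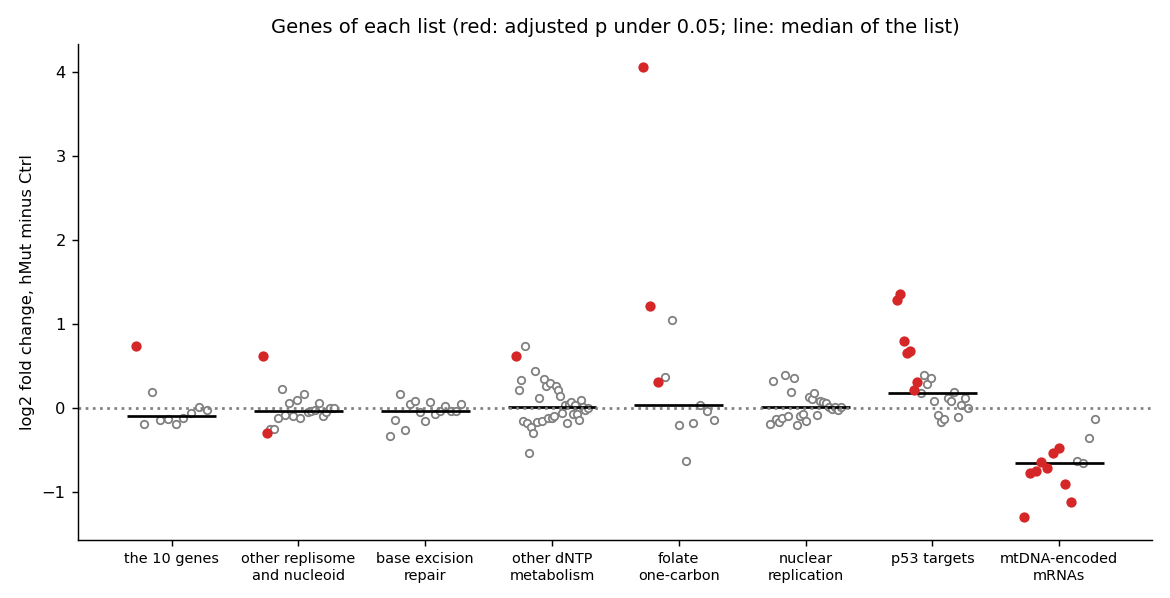
The log2 fold change (hMut minus Ctrl, y axis) of the tested genes of each list, with filled red points for an adjusted p under 0.05 and a line at the median of the list. Polg is the 1 filled point of the 10 genes, the folate list reaches 4.07 with Mthfd2, and 9 of 13 mtDNA-encoded mRNAs are filled below 0.

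Within the 9 hMut hearts, the 10 genes were set against the mean log2 level of the 13 mtDNA-encoded mRNAs. In edgeR 787 of 17354 nuclear genes (4.53%) had a slope with an adjusted p under 0.05 and none of the 10 did. Of the 10, only Twnk had an unadjusted edgeR p under 0.05, as 4110 of the 17354 nuclear genes did. Its slope was 0.45 log2 units per log2 unit of mtDNA-encoded mRNA (95% interval 0.11 to 0.78, edgeR adjusted p = 0.115, unadjusted 0.0136). Polg was at 0.27 (95% interval -0.02 to 0.56, edgeR adjusted p = 0.238). The count of calls rested on hMut 6, the heart with the least mtDNA-encoded mRNA, since without it 0 genes were called by edgeR (366 at an unadjusted p under 0.05). Without hMut 6 the slope of Twnk was 0.13 and that of Polg 0.06, while that of Polg2, at 0.24 with all 9 hearts, was 0.99 (95% interval 0.03 to 1.96, edgeR adjusted p = 0.99995, unadjusted 0.0448). Without hMut 6 and hMut 2, the hearts farthest from the median, the Twnk slope was -0.20.

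Several of the 10 genes overlap a neighbour, and the strand setting of the counting was not given in the sources used here, so reads in shared exons may be missing from both genes or placed in either. Fanci spans 4034 bases of the Polg locus on the opposite strand and held 16.5 counts per library in Ctrl and 18.6 in hMut, against 856 to 2497 for Polg. Mrpl43 overlaps Twnk over 780 bases (log2 fold change 0.0032), Snx5 overlaps Mgme1 over 244 (-0.02), Milr1 overlaps Polg2 over 542 (0.62, edgeR adjusted p = 0.254) and Cenpu overlaps Primpol over 4414 (0.23, 0.606). Inside Rrm2b, on the same strand, lies the processed pseudogene Gm3362 over 466 bases, with 532 and 583 counts per library (log2 fold change 0.01). Ddx5 lies 818 bases from Polg2 (-0.16, 0.0592); Gm10616 beside Polg, Gm49085 in Rrm2b and Gm45607 in Primpol had too few counts to test.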

How the data were processed

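Per the labels, RNA from heart tissue was extracted with a column kit (RNeasy), and poly(A) libraries were sequenced on a NovaSeq X Plus. After trimming by fastp and alignment by HISAT2 2.2.1 (build GRCm39), the authors made the deposited raw counts per gene with featureCounts 2.0.6; gene positions and lengths are in the same table. The strand setting was not given in the sources used here. Because poly(A) selection catches mtDNA-encoded RNA unevenly, those levels are relative.

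Counts were tested as deposited with edgeR 4.0.16 in R 4.3.3 (glmQLFit and glmQLFTest, TMM factors, filterByExpr) on 9 hMut and 8 Ctrl libraries without covariates, with Benjamini-Hochberg adjustment over the 16195 genes kept and a threshold of 0.05. Each library is labelled as a heart sample of its own, and p-values measure the spread between these samples. No pair of libraries shared values (Spearman's rho 0.906 to 0.926 over 136 pairs). Standard errors and 95% intervals came from the quasi-likelihood F statistic. Ratios used log2 of counts with 0.5 added and exact permutation tests. Library totals of 32915159 to 46486964 set the precision of low genes. The tests were checked on simulated data.

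The genes named were the 10 genes, those overlapping or within 1 kb of them, the 3 with the smallest adjusted p of each list, and the 5 nuclear genes most correlated with Polg. Named after their values were seen were Tfam, Polrmt, Rrm1, Mthfd1l, Mthfd2l, Mdm2, Ccng1, Sesn1, the marker genes that passed, Abcc9, Nr2f2 and Stard10. Not every gene covered by the rule is reported here. The genes and lists were chosen with earlier results of these data known. Alternatives were DESeq2 1.42.0, limma 3.58.1 (voom with quality weights), other scalings and filters, sex as a covariate, a replicate block and libraries left out. Leaving out hMut 6 and 9 from the ratios and the values within each sex were chosen after seeing the data. Promoter sequence was taken from RefSeq (GRCm38.p6) and exon sequence from GRCm39 with the GENCODE annotation.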

Additional observations from a re-analysis of the deposited data

How the results depend on the processing

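Polg was called in each alternative fit, with log2 fold changes of 0.69 to 0.81 with 1 library left out and 0.72 to 0.96 in the others, and the 3 count ratios kept their direction and side of the threshold in each alternative. The number of genes called (749) moved to 1517 with DESeq2, 2081 with limma-voom, 463 without a filter, 431 without hMut 6 and 9 and 5401 under cardiomyocyte scaling, and to between 395 and 1792 with 1 library left out. The share of calls that were higher, 75.3% with TMM, was 98.1% under cardiomyocyte scaling, 85.3% without a filter and 56.5% with limma-voom. The members called were 1 or 2 with 1 library left out, beside 2.45 to 11.1% of all genes. Under cardiomyocyte scaling they were 3, beside 33.2% of all genes. That scaling turned Polg2 to 0.028, Twnk to 0.081, Ssbp1 to 0.15, Mgme1 to 0.094, Dguok to 0.069, Rrm2b to 0.022 and Primpol to 0.21, where the median of all genes was 0.23; the shift is common to all genes by construction.

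Values close to 0 changed sign. Primpol was at 0.015 with sex as a covariate and between -0.10 and 0.10 with 1 library left out. Rnaseh1 was at -0.0010 with upper-quartile factors, -0.0051 with limma-voom and -0.017 without hMut 6 and 9, and between -0.0029 and 0.035 with 1 library left out. The count of slopes on mtDNA-encoded mRNA (787) was 0 without the 2 farthest hearts and between 0 and 2450 with 1 heart left out. Without the 2 farthest hearts the slopes were -0.10 for Polg, -0.20 for Twnk, -0.49 for Mgme1, -0.22 for Dguok, -0.21 for Rrm2b, 0.14 for Primpol, 0.11 for Rnaseh1, 0.24 for Ssbp1 and -0.018 for Tk2, with 1.03 for Polg2 in place of 0.24 (0.99 without hMut 6 alone). With 1 heart left out the Mgme1 slope lay between -0.14 and 0.42 and that of Rrm2b between -0.064 and 0.21. The cause of these moves was not tested.

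With the library number as a replicate block (8 pairs, hMut 9 left out) 185 genes were called, Polg among them at 0.78 (edgeR adjusted p = 0.00226), and no call among the 10 genes changed. Same-numbered libraries deviated together with correlations of -0.23 to 0.34, over 0.1 in 1 of 8 pairs, and 1 of 8 correlated best with its own number, so the numbers were not read as pairs. The depth limits Polg2 and Primpol, with 50 to 143 counts per library.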
